A study of Mus musculus with 14 samples.

Results

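The genes described here encode 10 LIM domain proteins of the actin cytoskeleton and nucleus: the FHL genes Fhl1, Fhl2 and Fhl3, the cysteine and glycine-rich protein genes Csrp1 and Csrp2, the PDZ and LIM domain genes Pdlim1, Pdlim5 and Pdlim7, and the zyxin family genes Lpp and Zyx. They were taken by gene name from a table of 39179 genes for 8 differentiation libraries and from 35886 gene sums for 6 libraries of sorted cells. All 10 were found in both. Each passed the filters on low values in both experiments, in every group and not only in the group where it was high.

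RNA-sequencing was performed on Ocy454 cells, a single mouse osteocyte-like line held in culture by a thermosensitive large T antigen, so that cells divide at the permissive temperature and mature after a shift to body temperature. All groups were grown on plain tissue culture plastic and carry this antigen. Differentiating cells were collected at days 1, 7, 10 and 14 after the shift, in biological duplicate (n = 2 per day). In the second experiment, live cells at day 17 were sorted by surface CD61 (integrin β3), and the 10% with the highest signal (CD61 high, n = 3) and the 10% with the lowest (CD61 low, n = 3) were sequenced.

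The LIM domain is a zinc-binding module that holds protein partners together, and most of these proteins shuttle between actin structures and the nucleus. FHL proteins consist almost wholly of LIM domains and act as adaptors for receptors, actin and transcription factors. CSRP proteins bind α-actinin and zyxin on actin filaments, PDLIM proteins join a PDZ domain to LIM domains and bring kinases to α-actinin, and zyxin and its relative LPP recruit VASP family proteins to focal adhesions and strained stress fibres. In bone, FHL2 is known as a partner of RUNX2 and β-catenin, and PDLIM7 is also called LIM mineralization protein.

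Library depth was even, at 27518605 to 34311238 reads per differentiation library and 18815602 to 19220064 estimated counts per sorted library, and all 10 genes lay well above the filters in every library. The sort was checked with Itgb3, which encodes CD61. It stood at 5.31, 5.54 and 6.10 CPM (reads per 1000000) after TMM scaling in CD61 low cells and at 130, 100.1 and 103.6 in CD61 high cells. The osteocyte markers Dmp1, Phex, Sost, Sp7, Mepe, Pdpn, Fgf23 and Bglap summed to 160 to 162 CPM at day 1 and 866 to 878 at day 14, and 6 of the 8 exceeded 1 CPM. Most of this sum was Sp7, an osteoblast lineage transcription factor, at 131 and 129 CPM at day 1 and 657 and 670 at day 14. Pdpn went the other way, from 28.4 and 28.0 to 19.4 and 19.2. Fgf23 was at 0 in all differentiation libraries and Mepe stayed below 1 CPM. In bulk RNA, fewer cells of one kind and less RNA per cell cannot be told apart.

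Fhl3 was one of the genes that the study knocked down. It was picked from a CRISPR interference screen, where guides against it were enriched in CD61 low cells. The study reports that its hairpins lowered CD61 intensity but not the percentage of CD61-positive cells. It found no consistent reduction of Sost or Dmp1. The target sites of the 3 short hairpins against Fhl3 are shown because they mark which part of the gene was aimed at. All lie on chromosome 4, plus strand, of GRCm39, and each is written 5′ to 3′.
Fhl3-1: tgccttgctatgagaacaaat
Fhl3-2: gtccttcgaagaccgacattg
Fhl3-3: caagacttctagggtagattt
The first lies at chr4:124601167-124601187, in coding sequence of exon 4 of the 6 exons of Fhl3-201, the main transcript. The second lies at chr4:124601631-124601651, in coding sequence of exon 6. The third lies at chr4:124602090-124602110, in the 3′ UTR part of the same exon. The second site is in all 7 annotated Fhl3 transcripts, and the sites of Fhl3-1 and Fhl3-3 are in 6 of them, leaving out Fhl3-203. The first site also occurs in Gm13898, a processed pseudogene on chromosome 6, which reached at most 0.0322 CPM in any differentiation library and 0 in the sorted ones.

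Promoters were searched for the CArG box, CC, 6 bases that are each A or T, and GG, which reads alike on both strands and is the site of serum response factor. RefSeq promoters (250 bases before to 50 after each start, assembly GRCm38.p6) were held for 9 of the 10 genes, Csrp2 being the gene without one. A CArG box was found in 2 of these 9 genes, Fhl2 and Fhl1, and in 3 of their 14 promoters. It was in 1.81% of all 27025 genes of the promoter set, and in 1.63% of all 32851 promoters. The matches are shown with the 10 flanking bases on either side and the box in capitals, on the strand of the gene.
Fhl2, upstream start: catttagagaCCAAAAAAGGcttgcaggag
Fhl2, downstream start: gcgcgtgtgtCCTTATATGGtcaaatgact
Fhl1: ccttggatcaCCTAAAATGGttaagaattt
Located on GRCm39 by their sequence, they lie at chr1:43235998-43236027 (minus strand), chr1:43203133-43203162 (minus strand) and chrX:55824931-55824960 (plus strand). The downstream Fhl2 box begins 31 bases before its RefSeq start, which is 32 bases downstream of the annotated start of Fhl2-201, the one Fhl2 transcript with counts in sorted cells. The box thus lies just inside that annotated transcript and not upstream of it. The other Fhl2 box belongs to the start of Fhl2-203, which had 0 TPM in all 6 sorted libraries. The Fhl1 box lies at a start 47896 bases from that of Fhl1-201, the transcript with 91.6% of Fhl1 TPM, and 47 bases from that of Fhl1-202, which had 1.65%. The TEAD motif GGAATG, searched on both strands as GGAATG or CATTCC, was found in 1 of the 9 genes, Lpp, against 16.6% of all genes.
Lpp: ggaagtatgtGGAATGgagaaggaag
This window lies at chr16:24540413-24540438 (plus strand), before the start of Lpp-203, which also had 0 TPM. A match says only that the letters are there; binding was not measured.

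Most of the LIM genes were lower after the first week than at day 1, and they parted afterwards. At day 7, 9 of the 10 had fallen, none had risen and Pdlim5 had not passed the test, with a median log2 fold change of -0.69 beside -0.05 for all 12725 genes tested (limma on log2(CPM + 1), adjusted p below 0.01). Of all genes, 32% fell and 24.5% rose in this comparison. The count of falls was 7 to 10 under the alternatives, through Csrp1, Pdlim1 and Pdlim5. Csrp2 and Lpp fell past 2-fold, as did 4.62% of all genes. At day 10 against day 1, 8 fell and none rose, beside 30.3% and 33.1% of all genes, and 4 fell past 2-fold (Csrp2, Pdlim7, Lpp and Zyx; 4.42% of all genes). At day 14 against day 1, 7 fell and Csrp1 rose, beside 36% and 32.6% of all genes, while Fhl1 and Fhl2 did not pass the test. Past 2-fold, 2 fell (Csrp2 and Lpp), beside 5.9% of all genes. The 3 comparisons share the day 1 libraries. The values of both replicates did not overlap between day 1 and day 7 in all 10 genes, which holds for 83.7% of all genes.

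**Figure D1:**
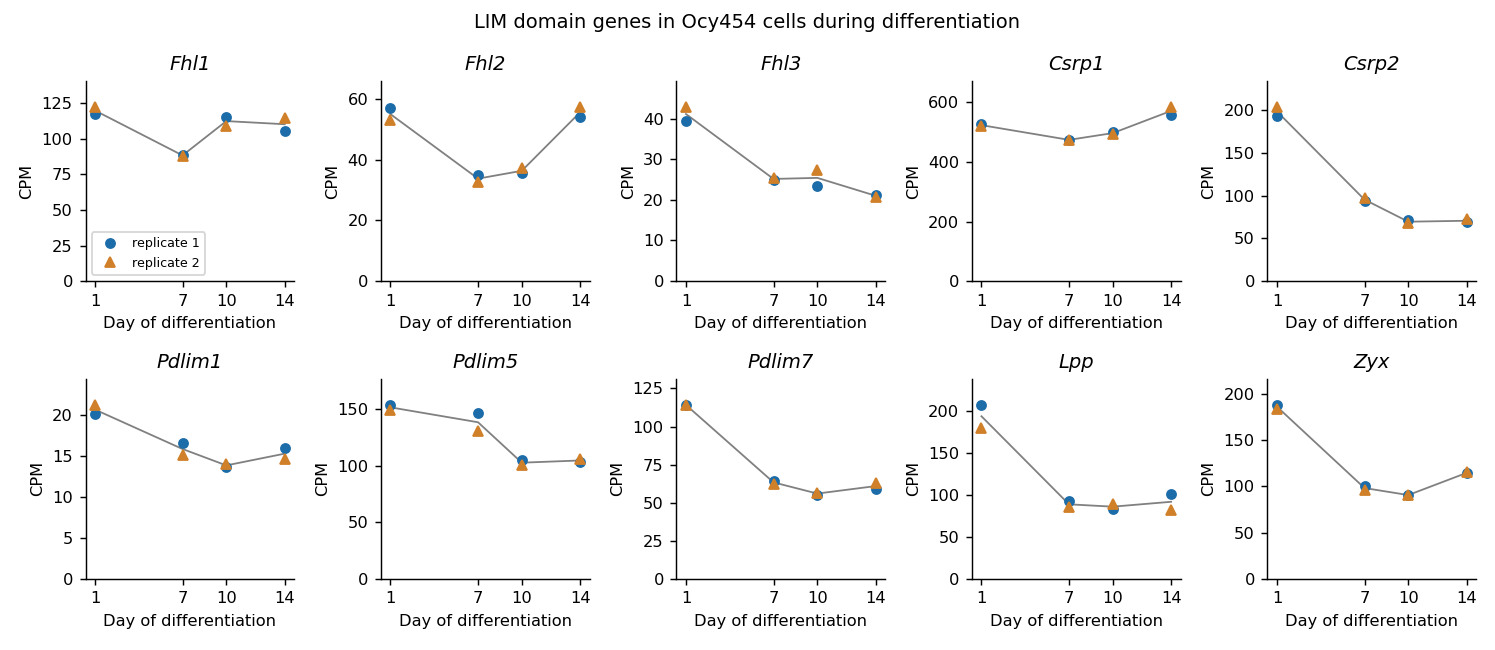
CPM of the 10 LIM domain genes (vertical axes, each from 0) against day of differentiation, with replicate 1 as circles, replicate 2 as triangles and a line through the means (n = 2 per day). Csrp2, Pdlim7, Lpp and Zyx drop between days 1 and 7, Fhl2 returns to its first level by day 14, and Csrp1 ends above it.

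The 3 FHL genes followed different courses. Fhl1, whose human gene is mutated in inherited muscle diseases, was at 118 and 122 CPM (day 1), 89.0 and 87.8 (day 7), 116 and 109 (day 10), and 106 and 115 (day 14). Day 7 was low in both replicates, and the later days lay just under day 1 without overlapping it. The fall at day 7 was -0.44 ± 0.045 on the log2 scale (SE; limma, adjusted p = 3.6e-09), the rise from day 7 to day 10 was 0.34 ± 0.045 (limma, adjusted p = 3.7e-07), and day 14 differed from day 1 by -0.12 (limma, adjusted p = 0.018, not called). Without day 14 replicate 2 that difference was -0.18 and was called (adjusted p = 0.0022), which made 8 of the 10 lower.

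Fhl2 stood at 56.9 and 53.1 CPM (day 1), 34.9 and 32.7 (day 7), 35.5 and 37.2 (day 10), and 54.0 and 57.3 (day 14). The middle days were low and the first and last overlapped. It fell by 0.69 on the log2 scale at day 7 (SE 0.057; limma, adjusted p = 5.6e-11) and rose by 0.60 from day 10 to day 14 (SE 0.057; limma, adjusted p = 1.3e-09), so that day 14 differed from day 1 by 0.02 (95% interval -0.10 to 0.13). Fhl2 shares 423 exonic bases with AI597479 on the opposite strand, a gene at up to 27.7 CPM here, and the counting is not stated to use strand, so that reads in those bases cannot be told apart.

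Fhl3 was at 39.4 and 42.8 CPM (day 1), 24.8 and 25.5 (day 7), 23.3 and 27.5 (day 10), and 21.2 and 20.7 (day 14). At day 14 it was lower than at day 1 by a log2 fold change of -0.94 ± 0.072 (limma, adjusted p = 8.5e-12). Its last step, from day 10 to day 14, was -0.26 ± 0.072 (limma, adjusted p = 0.0031), and this call was lost without the filter on low values (adjusted p = 0.036), with TMM scaling (0.021) and with edgeR on the recovered reads (0.019). It was also lost without day 14 replicate 1 (adjusted p = 0.011), day 14 replicate 2 (0.023) or day 10 replicate 2 (-0.15, adjusted p = 0.13).

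Per kilobase of gene length, Fhl3 made up 25.1% ± 1.33 (SD, n = 2) of the summed FHL level at day 1 and 15.1% ± 0.843 at day 14. Fhl2 went from 39.1% ± 2.13 to 46.3% ± 0.145, and Fhl1 from 35.8% ± 0.801 to 38.6% ± 0.698. Fhl3 was the smallest of the 3 in all 8 libraries. The Fhl1 share rests on its deposited length of 3704 bases, whereas Fhl1-201, its main transcript in sorted cells, has 2356. A shorter length would raise the Fhl1 share, so these shares do not settle the order of Fhl1 and Fhl2.

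Of the CSRP genes, Csrp1 was the most abundant of the 10 per kilobase on every day. It stood at 527 and 519 CPM (day 1), 474 and 474 (day 7), 499.9 and 494 (day 10), and 559 and 584 (day 14). The last day was the highest in both replicates. Its fall at day 7 was -0.14 ± 0.035 on the log2 scale (limma, adjusted p = 0.0010). It was not called with TMM scaling (-0.10, adjusted p = 0.016) or edgeR on the recovered reads (0.017), nor without day 1 replicate 1, day 7 replicate 1 or day 7 replicate 2 (adjusted p of 0.022, 0.011 and 0.012). Its change from day 1 to day 14 was small, at 0.13 ± 0.035 on the log2 scale (limma, adjusted p = 0.0024), and was not called without day 1 replicate 1, without day 1 replicate 2 or without day 14 replicate 2 (adjusted p of 0.014, 0.037 and 0.019). Its rise from day 10 to day 14 was 0.20 ± 0.035 (limma, adjusted p = 2.3e-05).

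Csrp2, known from vascular smooth muscle, had the largest decrease among the 10 at day 10 and day 14. Its levels were 193 and 203 CPM (day 1), 93.2 and 97.4 (day 7), 71.0 and 67.9 (day 10), and 69.1 and 72.1 (day 14). Day 1 stood far above the rest, and days 10 and 14 overlapped. The log2 fold change at day 14 was -1.48 ± 0.044 (limma, adjusted p = 1.2e-20), a 2.81-fold decrease in mean CPM.

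The PDLIM genes fell to different degrees. Pdlim7, the LIM mineralization protein, was at 114 and 114 CPM (day 1), 64.2 and 62.5 (day 7), 55.3 and 56.7 (day 10), and 59.0 and 62.8 (day 14). It was lowest at day 10 (log2 fold change -1.02 ± 0.046 against day 1; limma, adjusted p = 1.6e-16). The step from day 7 to day 10 was -0.18 (limma, adjusted p = 0.0021) and was not called without day 7 replicate 1 or day 10 replicate 1 (adjusted p of 0.028 and 0.024). The step from day 10 to day 14 was 0.12 (limma, adjusted p = 0.027) and was called as a rise with TMM scaling (0.18, adjusted p = 0.0016), quantile normalization (0.0039) and edgeR (0.0021), and without day 14 replicate 1 (0.0083). Pdlim5, which links protein kinase C to α-actinin, went from 154 and 149 CPM (day 1) and 146 and 131 (day 7) to 105 and 100.4 (day 10) and 103 and 106 (day 14). Its day 7 value did not pass the test (-0.13 ± 0.046; limma, adjusted p = 0.014). It passed without day 7 replicate 1 (-0.21, adjusted p = 0.0011) and with the 4 libraries of days 1 and 7 fitted alone (adjusted p = 0.0094). The step from day 7 to day 10 was -0.43 ± 0.046 (limma, adjusted p = 1.8e-08).

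Pdlim1, an α-actinin partner also called CLP36, was the least abundant per kilobase of its deposited length of 5513 bases, although its main transcript in sorted cells has 692. It was at 20.1 and 21.2 CPM (day 1), 16.6 and 15.1 (day 7), 13.7 and 14.0 (day 10), and 15.9 and 14.6 (day 14). The fall at day 7 was -0.36 (limma, adjusted p = 0.00035) and was not called without day 7 replicate 2 (adjusted p = 0.013). All later libraries lay under day 1, with a log2 fold change of -0.41 ± 0.081 at day 14 (limma, adjusted p = 6.2e-05).

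In the zyxin family, both genes fell, and Zyx then partly recovered. Zyx, which senses tension on stress fibres, was at 188 and 184 CPM (day 1), 100.4 and 95.7 (day 7), 90.4 and 90.5 (day 10), and 114 and 115 (day 14). It was lower by -1.03 ± 0.040 at day 10 (limma, adjusted p = 5.2e-18) and rose by 0.34 ± 0.040 from day 10 to day 14 (limma, adjusted p = 7.1e-08), which left it 1.62-fold under day 1. Lpp was at 207 and 180 CPM (day 1), 92.1 and 85.4 (day 7), 83.1 and 88.8 (day 10), and 101 and 82.2 (day 14). Its day 14 replicates differed more, relative to their mean, than those of the other 9, and the day 1 libraries still exceeded all others, with a log2 fold change of -1.07 ± 0.068 at day 14 (limma, adjusted p = 1.3e-13). Its step from day 10 to day 14 was 0.09 (limma, adjusted p = 0.27), but 0.24 and called as a rise without day 14 replicate 2 (adjusted p = 0.0041).

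The later steps were mixed. From day 7 to day 10, Fhl1 rose and Csrp2, Pdlim5 and Pdlim7 fell, that is 1 and 3 of 10 beside 29.8% and 18.9% of all genes. From day 10 to day 14, Fhl2, Csrp1 and Zyx rose and Fhl3 fell, the last with the limits given above, that is 3 and 1 of 10 beside 22.9% and 30% of all genes. These shares of all genes depend on the scaling: with TMM scaling, the share of higher among called genes went from 61.3% to 48.2% in the first step and from 43.3% to 53.0% in the second. In the first of these steps Zyx moved by -0.11 with an adjusted p of 0.016 (limma), and it passed the test with TMM scaling (-0.18, adjusted p = 0.00039).

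Of the smooth muscle markers Myh11, Acta2, Cnn1, Des, Smtn and Lmod1, the summed level was 1554 to 1560 CPM at day 1, 218 to 219 at day 7, 102 to 111 at day 10 and 287 to 289 at day 14, and 4 of the 6 exceeded 1 CPM. Almost all of the sum at day 1 was Acta2, smooth muscle actin, at 1450 CPM in replicate 1, against 0.177 for Myh11 and 0.0590 for Cnn1, which define mature smooth muscle. Lmod1 was also lower later (12.7 and 14.1 CPM at day 1, 5.57 and 5.16 at day 14). Smtn stayed within 67.7 to 91.2 in all differentiation libraries, and Des was higher later (0.974 and 0.408 at day 1, 2.59 and 4.36 at day 14). Of the skeletal muscle markers Myog, Myod1, Acta1, Ckm, Myh1, Myh4, Tnnt3 and Mylpf, the sum was 3.22 to 3.64 CPM at day 1 and 24.2 to 26.8 at day 14, with Myog and Myh4 at 0. Nearly all of this rise was Acta1, at 2.07 and 2.16 CPM at day 1 and 23.0 and 25.0 at day 14. Mylpf was at 1.00 and 1.04 against 1.05 and 1.56, and the remaining markers of this list stayed below 1 CPM. The part of these shifts in the LIM gene results was not tested.

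Among pairs of the 10 genes, Pearson's r of log2(CPM + 1) over the 8 libraries ranged from -0.33 (Csrp1 and Pdlim5) to 0.98 (Csrp2 and Pdlim7). Zyx and Lpp had an r of 0.95. These values describe 4 days with 2 libraries each. By the same measure, among 10313 genes averaging 5 CPM or more, those most like Fhl1 were Ets1 and Twf2 (r of 0.99 each). The genes most like Fhl2 were Ttyh3, Slc27a4 and Radil (r of 0.996, 0.990 and 0.986). Those most like Fhl3 were Them6, Hsd17b4 and Mrpl41 (r of 0.990, 0.990 and 0.987).

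Some LIM genes were called higher and others lower in CD61 high than in CD61 low cells. Fhl1 and Csrp1 were higher in CD61 high cells, Pdlim1, Zyx, Pdlim7 and Fhl3 were lower, and Fhl2, Csrp2, Pdlim5 and Lpp did not pass the test (edgeR quasi-likelihood test over 12077 genes, adjusted p below 0.01). Thus 2 of 10 were higher and 4 of 10 lower, beside 19.4% and 16% of all genes, with a median log2 fold change of -0.16 beside 0.00. The share of higher genes was near that of all genes. Of the 4 lower calls, those of Fhl3 and Pdlim7 were lost with most single libraries left out, as given below. Pdlim1 alone passed 2-fold, beside 4.37% of all genes that were lower past 2-fold. The values of the 3 libraries did not overlap between groups in 7 of the 10, which holds for 58% of all genes.

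**Figure D2:**
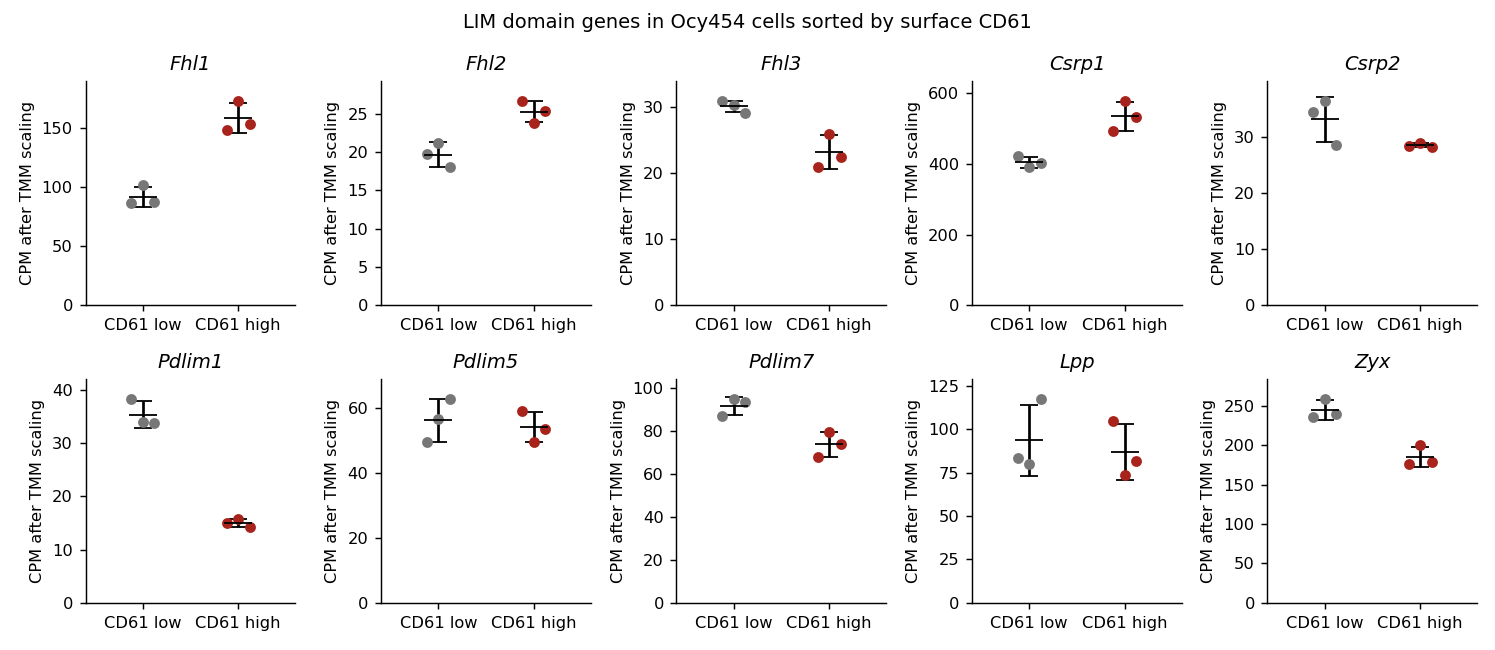
CPM after TMM scaling of the 10 LIM domain genes in CD61 low (grey) and CD61 high (red) cells, with 1 point per library and the mean ± SD (n = 3). Fhl1, Fhl2 and Csrp1 are higher and Fhl3, Pdlim1, Pdlim7 and Zyx lower in every CD61 high library, and the other 3 genes overlap.

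Fhl1 was at 86.1, 102 and 87.0 CPM after TMM scaling in CD61 low cells and at 148, 172 and 154 in CD61 high cells. The groups lay well apart, with a log2 fold change of 0.79 ± 0.089 (edgeR, adjusted p = 5.1e-05). Fhl2 was at 19.8, 21.3 and 18.0 in CD61 low and 26.6, 23.8 and 25.4 in CD61 high cells. These groups did not overlap either, but the change of 0.36 ± 0.098 narrowly missed the threshold (edgeR, adjusted p = 0.011). Fhl3 went the other way, from 30.9, 30.3 and 29.1 in CD61 low to 20.9, 26.0 and 22.5 in CD61 high cells, a log2 fold change of -0.38 ± 0.098 (edgeR, adjusted p = 0.0088). This call was near the threshold, and leaving out any library except CD61 high replicate 2 ended it (adjusted p of 0.012 to 0.037). An offset for transcript length (edgeR, adjusted p = 0.029) and the edgeR filter on low counts (0.0103) ended it as well.

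Per length, the make-up of the FHL genes was compared between the sorted groups. Fhl1 supplied 52.8%, 56.2% and 55.0% of the summed FHL TPM (transcripts per 1000000) in CD61 low cells and 66.9%, 68.6% and 66.6% in CD61 high cells. Fhl3 supplied 26.7%, 23.9% and 26.0% against 13.3%, 15.1% and 14.4%. Neither pair of groups overlapped, and the exact two-sided permutation test gave p = 0.1 for each, the smallest that 3 against 3 allows. The Fhl2 share overlapped, at 19.8% ± 0.760 and 18.4% ± 1.90 (SD, n = 3; exact p = 0.5). The shares are parts of the same sum, so those of Fhl1 and Fhl3 are not independent of each other.

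**Figure D3:**
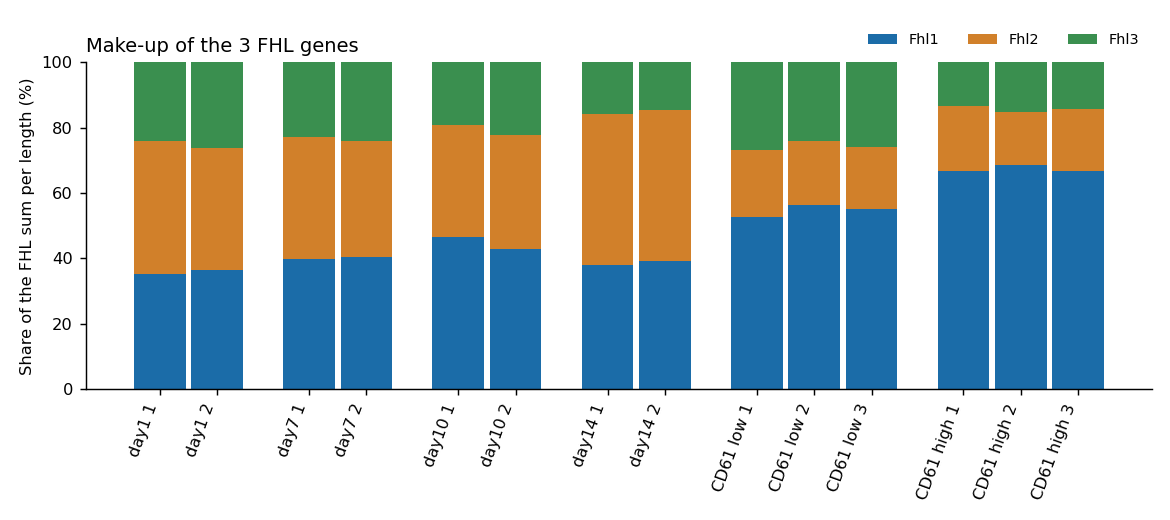
Share of Fhl1 (blue), Fhl2 (orange) and Fhl3 (green) in the summed FHL level per length, 1 bar per library, from CPM per kilobase at days 1 to 14 and from TPM in sorted cells, which are different scales and not to be compared with each other. The Fhl3 share is smallest at day 14 and in CD61 high cells. The shares at days 1 to 14 use the deposited gene lengths, on which the order of Fhl1 and Fhl2 depends.

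Csrp1 was at 422, 391 and 401 CPM after TMM scaling in CD61 low and 494, 577 and 533 in CD61 high cells, a log2 fold change of 0.40 ± 0.076 (edgeR, adjusted p = 0.0015). Csrp2 was at 34.3, 36.3 and 28.6 against 28.4, 28.8 and 28.2. CD61 low replicate 3 reached into the CD61 high range, and the change of -0.22 ± 0.10 was not called (edgeR, adjusted p = 0.098).

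Pdlim1 had the largest change of the 10. It stood at 38.3, 34.0 and 33.8 in CD61 low and at 14.96, 15.7 and 14.2 in CD61 high cells, a log2 fold change of -1.24 ± 0.094 (edgeR, adjusted p = 3.4e-06) or 2.36-fold in mean CPM. Pdlim7 was at 86.8, 94.9 and 93.3 against 67.9, 79.7 and 74.0, a change of -0.31 ± 0.080 (edgeR, adjusted p = 0.0083). Leaving out any library except CD61 high replicate 2 ended the call (adjusted p of 0.012 to 0.039), as did an offset for transcript length (0.059). Pdlim5 overlapped, at 49.5, 56.6 and 62.8 against 59.0, 49.7 and 53.6 (-0.06, 95% interval -0.28 to 0.17).

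Zyx was at 236, 258 and 239 in CD61 low and at 177, 200 and 179 in CD61 high cells, a log2 fold change of -0.40 ± 0.075 (edgeR, adjusted p = 0.0014). Without CD61 high replicate 3 its adjusted p was 0.011. Lpp was at 83.4, 80.0 and 117 against 105, 73.9 and 81.5, with no separation (-0.11, 95% interval -0.46 to 0.25). Lpp and Pdlim5, whose deposited lengths of 15978 and 6429 bases are the longest of the 10, were highest in CD61 low replicate 3 and CD61 high replicate 1 of their groups. In these libraries the 1463 tested genes longer than 8 kb lay above their group mean by a median of 0.14 and 0.13 on the log2 scale, and by -0.13 to 0.00059 in the other 4. Genes of 4 to 8 kb, the range that holds Pdlim5, lay above it by only 0.039 and 0.031 in these 2 libraries. Without both libraries, Fhl1, Csrp1, Pdlim1 and Zyx were still called, 2 higher and 2 lower.

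These sort values rest on TMM scaling. By library size alone the median gene moved by -0.30, the split among called genes went from 54.8% higher to 18.8% higher, and 1 of the 10 LIM genes (Fhl1) was called higher and 6 lower. Csrp1 was then at 0.10 (edgeR, adjusted p = 0.28), that is 0.40 above the median gene under either scaling. The osteocyte markers summed to 281 to 363 CPM in CD61 low and 1023 to 1050 in CD61 high cells, mostly from Sp7, while Pdpn was at 15.2 to 16.2 and 9.53 to 12.1. The smooth muscle markers summed to 326 to 352 CPM in CD61 low and 448 to 494 in CD61 high cells, with Cnn1 at 0. Acta2 made up most of the CD61 low sum and overlapped between the groups, at 222 to 268 and 219 to 289 CPM. The difference came chiefly from Smtn, at 76.3 to 94.4 and 197 to 223 CPM. The skeletal muscle markers summed to 17.8 to 18.8 and 30.9 to 44.0, nearly all from Acta1, with Myog, Myod1, Myh1 and Myh4 at 0. The macrophage markers Ptprc, Csf1r, Cd68, Adgre1, Lyz2 and Itgam summed to 12.8 to 15.8 and 8.18 to 8.86, nearly all from Cd68, with Adgre1 at 0. The chondrocyte markers Col2a1, Acan, Sox9, Matn1 and Comp summed to 38.7 to 48.6 and 100.2 to 117. Adipocyte markers (Adipoq, Plin1, Lep, Cidec, Fabp4) and endothelial markers (Pecam1, Cdh5, Kdr, Tek, Emcn) stayed below 1 CPM in sum in every library. Their part in the LIM gene results was not tested.

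The plot of fold changes sets both experiments side by side. Csrp1 was called higher at day 14 and in CD61 high cells, and Fhl3, Pdlim1, Pdlim7 and Zyx were called lower in both, although leaving out any 1 of 3 libraries ended the day 14 call of Csrp1, leaving out any 1 of 5 ended the sort calls of Fhl3 and Pdlim7, and leaving out CD61 high replicate 3 ended that of Zyx. Fhl1 was called in the sort but not at day 14, and Csrp2, Lpp and Pdlim5 at day 14 but not in the sort. The difference between the experiments was not tested, since their libraries, counting and scaling differ. Pdlim1 changed by -0.41 over the days and by -1.24 across CD61 levels, whereas Csrp2 changed by -1.48 and -0.22.

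**Figure D4:**
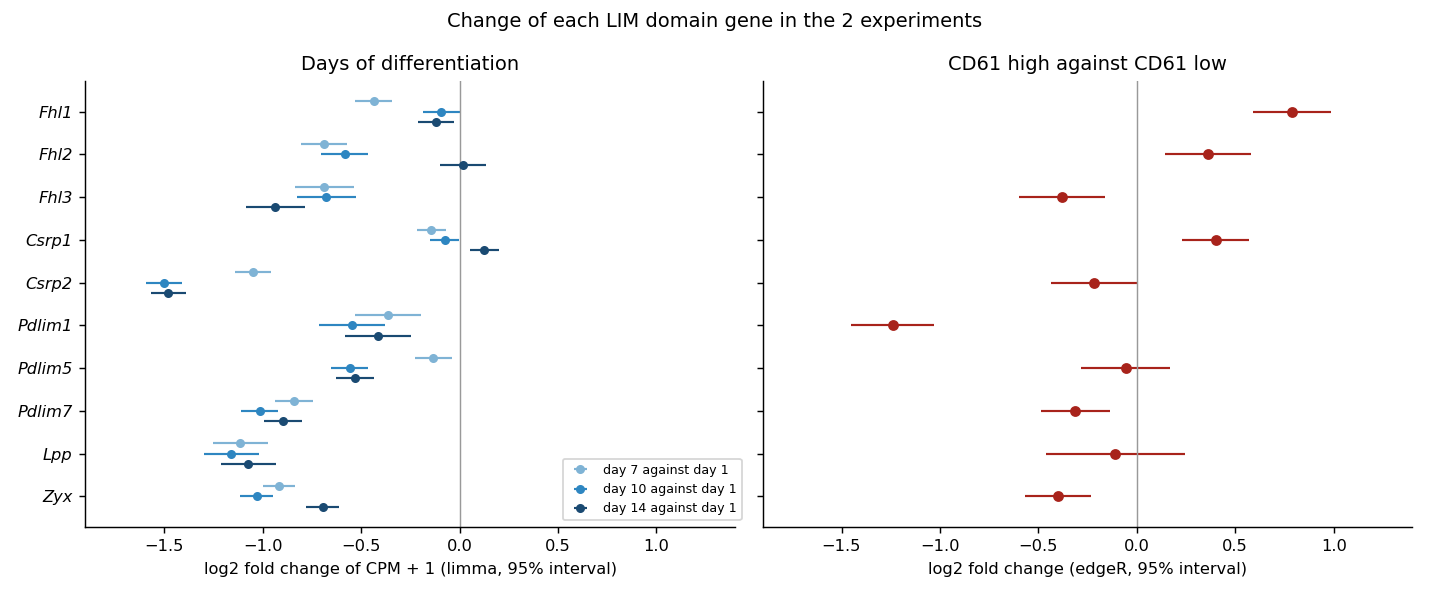
Log2 fold change with its 95% interval for each LIM domain gene, at days 7, 10 and 14 against day 1 (left; limma on log2(CPM + 1), n = 2 per day) and in CD61 high against CD61 low cells (right; edgeR, n = 3 per group). Csrp2 and Lpp lie below -1 at day 14, Pdlim1 lies below -1 in the sort, and Fhl1 lies at 0.79 in the sort.

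Levels between genes were compared per length, as the sum of deposited TPM over each gene's transcripts. In CD61 low cells the order was Csrp1 (467 ± 15.2 TPM, SD, n = 3), Zyx (231 ± 11.6), Csrp2 (103.96 ± 11.97), Pdlim7 (98.9 ± 5.89), Pdlim1 (82.8 ± 6.68), Fhl1 (73.5 ± 7.19), Pdlim5 (37.7 ± 6.05), Fhl3 (34.2 ± 0.359), Fhl2 (26.5 ± 1.94) and Lpp (12.04 ± 3.02). Csrp2 and Pdlim7, Pdlim1 and Fhl1, and Pdlim5 and Fhl3 were neighbours whose libraries overlapped. In CD61 high cells Fhl1 stood next at 101.1 ± 4.50 TPM, behind Csrp1 at 498 ± 17.4 and Zyx at 146 ± 2.95, while Fhl2, Pdlim1, Pdlim5 and Fhl3, at 27.5, 27.2, 24.8 and 21.4 TPM, each overlapped the next in that order. TPM of each library sum to the same total and were not TMM scaled, so the changes between groups are those given above.

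The sorted libraries were quantified per transcript, and 27 transcripts of the 10 genes passed the filter. Of these, Fhl1-201 was higher (log2 fold change 0.78 ± 0.11; edgeR over 24853 transcripts, adjusted p = 0.0033) and Pdlim1-202 lower (-1.39 ± 0.19; edgeR, adjusted p = 0.0031), beside 4.19% higher and 2.67% lower of all transcripts. Pdlim1-202 was past 2-fold, as were 1.49% of all transcripts that were lower. Both calls were lost with some libraries left out: Fhl1-201 without CD61 low replicate 1 or 3 or CD61 high replicate 3 (adjusted p of 0.014 to 0.016), and Pdlim1-202 without CD61 low replicate 1 or 2 or CD61 high replicate 1 or 3 (0.013 to 0.022). Csrp1 and Fhl2 were counted as 1 transcript each, Csrp1-201 and Fhl2-201, and Lpp-201 held 99.5% and 99.6% of Lpp TPM in CD61 low and CD61 high cells. Fhl3-201 held 94.8% ± 1.34 and 91.2% ± 2.82 (SD, n = 3). Zyx, Csrp2, Pdlim5, Pdlim7 and Pdlim1 were split over several transcripts. Zyx-207 led Zyx with 49.3% and 48.7%, and Pdlim7-201 led Pdlim7 with 68.6% and 68.5%. Csrp2-206, annotated without a coding sequence, led Csrp2 with 59.99% and 63.4%.

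Of 17 transcripts with a mean share of at least 10% of their gene, 1 did not overlap between groups, beside 12.2% of 23205 such transcripts over all genes tested. Pdlim5-201, the transcript of 5016 bases, held 43.4%, 54.8% and 45.02% of Pdlim5 TPM in CD61 low cells and 58.5%, 63.4% and 59.8% in CD61 high cells. The difference of 12.9 percentage points had an exact two-sided permutation p of 0.1, the smallest possible. The shorter Pdlim5-208, of 1196 bases, was at 52.4%, 37.2% and 47.2% against 37.4%, 34.0% and 32.0%, which overlapped (exact p = 0.2). How Salmon divides reads among overlapping transcripts is a limit on all these shares.

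**Figure D5:**
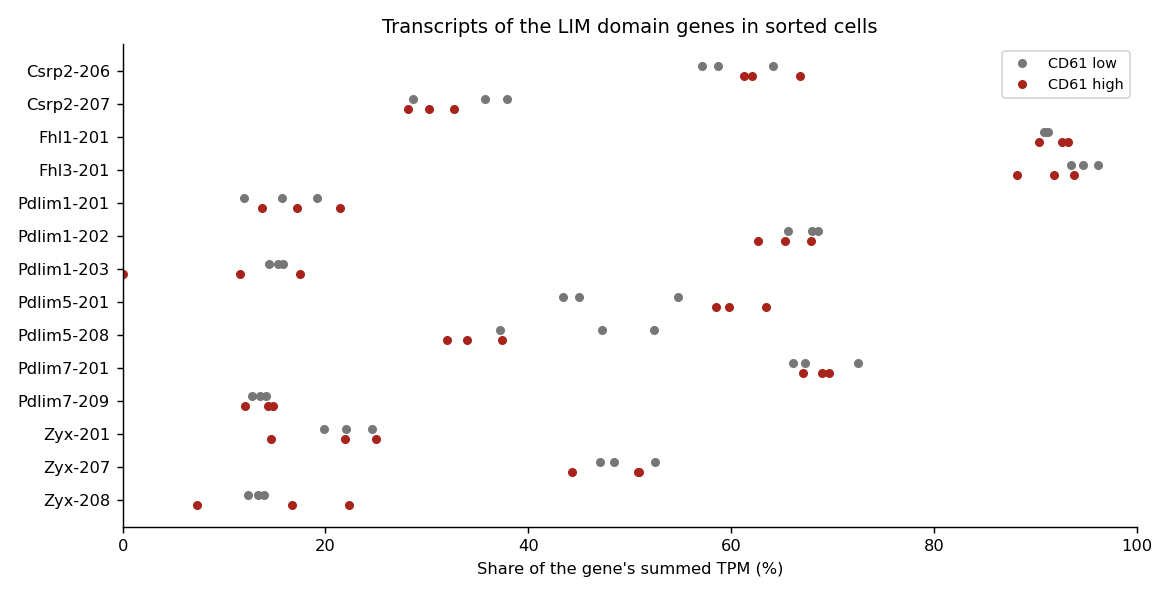
Share of each transcript in the summed TPM of its gene (%), in CD61 low (grey) and CD61 high (red) libraries, 1 point per library (n = 3). Transcripts with a mean share of at least 10% are shown, except Csrp1-201, Fhl2-201 and Lpp-201, which held all or nearly all of their gene. Pdlim5-201 is the one transcript whose groups do not overlap, with 43.4% to 54.8% against 58.5% to 63.4%.

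Other LIM genes of the cytoskeleton were more often lower than higher at the earlier days, and moved both ways at day 14 and in the sort. At day 7, 8 of 34 tested rose and 19 fell, with a median log2 fold change of -0.20 beside -0.05, and at day 10, 10 rose and 19 fell, with -0.31 beside 0.02. The shares of all genes were 24.5% and 32% at day 7, and 33.1% and 30.3% at day 10. From day 10 to day 14 the list went the other way, as 15 rose and 5 fell (22.9% and 30% of all genes). The median of this step was 0.18 beside -0.04. Of 41 listed genes, 34 were tested at day 14 against day 1, of which 11 rose, 14 fell and 9 did not pass the test (of all genes, 32.6% rose and 36% fell), with a median log2 fold change of -0.06 beside -0.03 for all genes. Mical3, a flavin monooxygenase, rose from 34.3 ± 1.28 to 123 ± 5.87 CPM (SD, n = 2; limma, adjusted p = 3.1e-22). Prickle2, a planar polarity gene, rose by 1.77 and Crip2 by 1.67 on the log2 scale. Ajuba, a zyxin family member, fell from 131 ± 0.222 to 41.2 ± 0.136 CPM (limma, adjusted p = 2e-20), and Ablim1, Lmcd1 and Micall2 fell by 1.52, 1.23 and 1.12. In the sort, 13 of 33 tested were higher and 10 lower, beside 19.4% and 16% of all genes, with a median of -0.06 beside 0.00. Mical3, Prickle2, Crip1 and Prickle3 were higher by 1.44, 1.36, 1.30 and 1.09. Tes, a focal adhesion protein that binds zyxin, was lower, at 20.5 ± 0.739 against 6.32 ± 0.653 CPM (SD, n = 3; edgeR, adjusted p = 1.9e-06). Micall2 and Ablim1 were lower by -1.44 and -1.27.

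Actin and focal adhesion partners were mostly lower at day 14. Of 23 tested of 24 listed, 16 fell and 3 rose, beside 36% and 32.6% of all genes, with a median of -0.25 beside -0.03. Flnc, the muscle filamin, fell from 273 ± 13.4 to 94.4 ± 4.22 CPM (limma, adjusted p = 9.9e-21), and Tln2, Svil and Palld fell by 1.73, 1.59 and 1.56 on the log2 scale. Tns1, a tensin, rose by 2.25 and Evl, of the VASP family that zyxin binds, by 1.23. In the sort 6 were higher, 6 lower and 11 not called, beside 19.4% higher and 16% lower of all genes, with a median of 0.04 beside 0.00. Flnc was lower by -1.77 ± 0.11 (edgeR, adjusted p = 9e-07), and Evl and Tns1 were higher by 1.09 and 1.01.

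Nuclear partners of FHL proteins were more often higher than lower at day 14 against day 1 and in the sort. At day 14, 9 of 13 rose and 2 fell, beside 32.6% and 36% of all genes, with a median of 0.33 beside -0.03, led by Foxo1, which FHL2 binds, from 61.4 ± 1.65 to 199 ± 10.2 CPM (limma, adjusted p = 1.2e-21). Fos rose by 1.52 and Mrtfa, a coactivator of serum response factor, fell by 1.14. At day 7, 6 rose and 4 fell (24.5% and 32% of all genes), with a median of 0.02 beside -0.05, and from day 10 to day 14, 2 rose and 4 fell (22.9% and 30% of all genes). In the sort, 5 of 13 were higher and 2 lower, beside 19.4% and 16% of all genes, with a median of 0.21 beside 0.00. Runx2, the osteoblast transcription factor, went from 170 ± 25.2 CPM in the CD61 low to 399 ± 34.1 in the CD61 high group (SD, n = 3; edgeR, adjusted p = 9.2e-06). Foxo1 and Ctnnb1, which encodes β-catenin, were higher by 1.42 and 1.03. Fos was higher by 1.21, at 198 ± 37.6 CPM in CD61 low and 457 ± 154 in CD61 high cells (SD, n = 3). In the unsorted cells Fos was only at 2.54 CPM at day 1 and 9.11 at day 14. The cause of this gap between the experiments was not tested.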

How the data were processed

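Ocy454 RNA was sequenced by the authors as 8 differentiation and 6 sorted libraries. For differentiation they aligned reads with STAR, counted with HTSeq-count and deposited CPM; the alignment build of that table is not given in the sources used here. All CPM values were whole reads within 0.01, so reads were recovered. For the sort the authors deposited Salmon estimated counts and TPM per transcript (GRCm39 transcriptome); replicates were not pooled. Estimated counts were summed per gene with GENCODE M39 (115556 of 116747 transcripts matched) and rounded. Every column of per-sample values was mapped.

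Days were compared with limma 3.58.1 (trend, all 8 libraries) on log2(CPM + 1) for 12725 genes above 1 CPM in at least 1 library. Sorted groups were compared with edgeR 4.0.16 (quasi-likelihood, TMM over all genes) for 12077 genes that reached 5 normalized counts in each of the 6 libraries, in R 4.3.3. Adjustment was Benjamini-Hochberg over all genes tested, and calls were made at 0.01, and separately past 2-fold. A fold change on log2(CPM + 1) understates the change of low genes. The study's methods describe the libraries as biological duplicates and 3 independent groups of cells. The fits were tested on simulated data. The members and lists were chosen with earlier results of these data known. Named genes were the 10 members, Itgb3, up to 4 list genes per direction with the largest change past 2-fold (mean of at least 5 CPM, no overlap), and the 3 genes most correlated with each FHL gene, of which 1 is not reported here. Alternatives were DESeq2 1.42.0, edgeR on the recovered reads, other scalings, filters, pseudocounts and length offsets, leaving out each library, and a block for the replicate number. The flow cytometry, screen and imaging were not analysed here.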

Additional observations from a re-analysis of the deposited data

How the results depend on the processing

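Of 800 values for single genes in the differentiation comparisons under the alternatives, 745 kept their direction and side of the threshold, as did 126 of 150 in the sort and 126 of 144 for transcripts. All 119 alternative values of the transcript shares moved by less than 1 SD. At day 14 against day 1, Csrp1 was not called without the filter on low values, which left 0 genes higher, and leaving out each library gave 0 to 1 higher and 1 to 2 lower past 2-fold. From day 7 to day 10, quantile normalization gave 2 higher and 5 lower and edgeR on the recovered reads 5 lower. From day 10 to day 14, 0 were lower without the filter, with TMM scaling and with edgeR (0 to 1 without each library). Sorted cells had 1 gene higher by library size alone, 2 lower with an offset for transcript length and with the replicate number as a block, 1 to 4 lower without each library, and 2 lower without CD61 low replicate 3 and CD61 high replicate 1 together, a choice made after seeing the data. For transcripts, 0 were higher by library size alone or with a filter on at least 3 libraries, 4 were lower and 2 lower past 2-fold by library size alone, 0 and 0 with the block, and 0 to 1 in each count without each library. The cause of these shifts was not tested.

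Replicate numbers were shared between groups, and the methods speak of 3 independent groups of sorted cells, but the labels do not tie a number to one of these. Correlations of same-numbered deviations were -0.03 to 0.06 between days and -0.24, 0.15 and -0.05 in the sort, where CD61 low replicates 1 and 3 correlated best with another number (0.19 and 0.36), so the numbers were not used as pairs. Whether numbers mark a shared culture is not known. With the replicate block Fhl3 and Pdlim7 in the sort had adjusted p of 0.018 and 0.012 (edgeR), and no member changed its call at the other days except Pdlim5 at day 7 (adjusted p = 0.0086, limma).

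No called value changed direction. Among uncalled ones, Fhl1 from day 10 to day 14 was 0.030 with TMM scaling, 0.0019 with quantile normalization and 0.027 with edgeR. From day 7 to day 10, Fhl3 was -0.057, -0.053 and -0.055 under these, and Csrp1 -0.0024 with TMM scaling and -0.0042 with edgeR. Pdlim5-201 was -0.23 by library size alone. Leaving out each library in turn, Fhl2 at day 14 against day 1 ranged from -0.032 to 0.066. From day 7 to day 10, Fhl3 ranged from -0.10 to 0.12 and Lpp from -0.10 to 0.0090. From day 10 to day 14, Csrp2 ranged from -0.0091 to 0.054, Fhl1 from -0.087 to 0.029, Pdlim5 from -0.0049 to 0.059 and Lpp from -0.063 to 0.24. In the sort, Pdlim5 ranged from -0.14 to 0.029, Lpp from -0.27 to 0.087, Zyx-208 from -0.59 to 0.10, Lpp-201 from -0.29 to 0.045 and Pdlim5-201 from -0.063 to 0.093.

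Over all genes, library size alone changed the calls in the sort from 2342 to 1120 higher and from 1933 to 4824 lower (528 to 981 lower past 2-fold), and leaving out CD61 low replicate 2 gave 1285 lower. Over all transcripts, 1042 were higher and 663 lower, with 384 to 649 and 185 to 1920 under the alternatives that moved these counts by over 1.5 times, and 371 were lower past 2-fold, with 155 to 811. With 2 or 3 libraries a group, small changes near the threshold could not be settled at this depth.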
